A study of Homo sapiens with 2 samples.

Results

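The genes described here are the subunits of the transcription factor NF-kB and the proteins that hold it back: the subunit genes NFKB1, NFKB2, REL, RELA and RELB, and the inhibitor genes NFKBIA, NFKBIB, NFKBIE, NFKBIZ and TNFAIP3. They were chosen by symbol, and all 10 were listed in both deposited tables, among 13219 genes listed in at least 1 table and 11476 listed in both. RNA sequencing compared a cell line called 231 in the labels, with breast as its tissue, after transfection with siYBX1 and after transfection with siNC, and cells were collected at 48 h. The cells were grown in L15 medium with serum; 231 is often short for MDA-MB-231, an invasive line without hormone receptors, but the labels do not spell this out. The siYBX1 reagent is an siRNA in the labels and a Smart Silencer in the design text, and the siNC reagent is not described further. YBX1 encodes YB-1, a cold shock domain protein that binds DNA and RNA, and the study asked how the transcriptome differs after its knockdown. Each group held 1 library, so there were no replicates, no difference below has a replicate check or a test across samples, and a difference belongs to this pair of libraries.

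NF-kB is a family of dimers built from these 5 subunits. In resting cells the IkB proteins, encoded by NFKBIA, NFKBIB and NFKBIE, keep dimers of RELA, REL and the processed product of NFKB1 in the cytoplasm. Signals from receptors of TNF, IL-1 and Toll-like ligands activate the IKK kinases, IkB is marked for destruction by a ubiquitin ligase, and the dimers enter the nucleus. A slower, non-canonical route processes the NFKB2 product and releases its dimer with RELB. Several of the inhibitors are themselves transcribed by NF-kB, which makes them feedback genes as well as markers of its activity.

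The values are FPKM, fragments scaled to transcript length and library size, so levels of different genes can be set side by side within a library. No counts accompany them and the depth is unknown. The siYBX1 library had 11678 listed genes and the siNC library 13017. The labels' targeted gene, YBX1, was at 38.1 FPKM in siYBX1 and 649 FPKM in siNC, 17.0-fold lower. All 5 markers of mesenchymal breast cancer cells (VIM, CD44, CAV1, AXL and EGFR) were above 1 FPKM in both libraries, with sums of 766 FPKM in siYBX1 and 580 FPKM in siNC. Of 7 luminal breast markers, 3 were listed in siYBX1 and 5 in siNC, with sums of 86.4 and 156 FPKM; KRT19 made up most of this, at 83.0 and 153 FPKM, GATA3 stood at 2.14 and 2.34 FPKM, and the hormone receptor genes ESR1 and PGR were in neither table. Of 8 leukocyte markers, 2 were listed in siYBX1 and 3 in siNC, with sums of 0.949 and 2.72 FPKM, and the pan-leukocyte gene PTPRC was in neither. Of 6 hepatocyte markers, 1 was listed in siYBX1 and 5 in siNC, with sums of 39.96 and 42.6 FPKM. The 1 listed in siYBX1 was SERPINA1, at 39.96 FPKM there and 17.0 FPKM in siNC. In siNC, ALB stood at 10.4, FGB at 12.0, APOB at 2.26 and APOA1 at 0.940 FPKM. None of these was listed in siYBX1, and TTR was in neither. Of 5 fibroblast markers, 2 were listed in each library, with sums of 5.88 FPKM in siYBX1 and 1.21 FPKM in siNC; COL1A1 stood at 3.67 and 0.351 FPKM and PDGFRB at 2.22 and 0.861 FPKM, while COL1A2, DCN and LUM were in neither. Of 4 endothelial markers, 0 were listed in siYBX1 and 1 in siNC, KDR at 0.645 FPKM. The part that cells of another type in either library might have in the differences below was not tested. In such bulk RNA, fewer cells with a transcript and less of it per cell cannot be told apart.

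Differences are given as log2(FPKM + 1) in siYBX1 minus siNC, a scale that understates the differences of low genes. A gene was called higher or lower from a difference of 1, which is 2-fold in FPKM + 1. The 2-fold call is meant in this sense throughout, also in the figures, while ratios of single genes are of FPKM. A gene over 2-fold in FPKM can thus stay uncalled, such as IL1R1 at a ratio of 2.48 and a difference of 0.97. Of the 10 genes, 7 were higher in the siYBX1 library and 0 were lower. Of the 10548 genes that could be compared, 7.20% were higher and 5.62% lower. Among compared genes with a mean of 5 to 50 FPKM, the range that holds 9 of the 10, these shares were 7.79% and 6.85%. The median difference of the 10 genes was 1.27, against 0.02 over all compared genes. The call took in 3 of 5 subunits, with a median of 1.04, and 4 of 5 inhibitors, with a median of 1.48. The smallest difference among the called genes was that of NFKB1, at 1.04, and the largest among the others that of NFKBIE, at 0.63. At 3-fold, 3 of the 10 genes were higher (RELB, TNFAIP3 and NFKBIZ), where 1.62% of compared genes were; at 1.5-fold, 8 were, where 18.3% were.

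**Figure D1:**
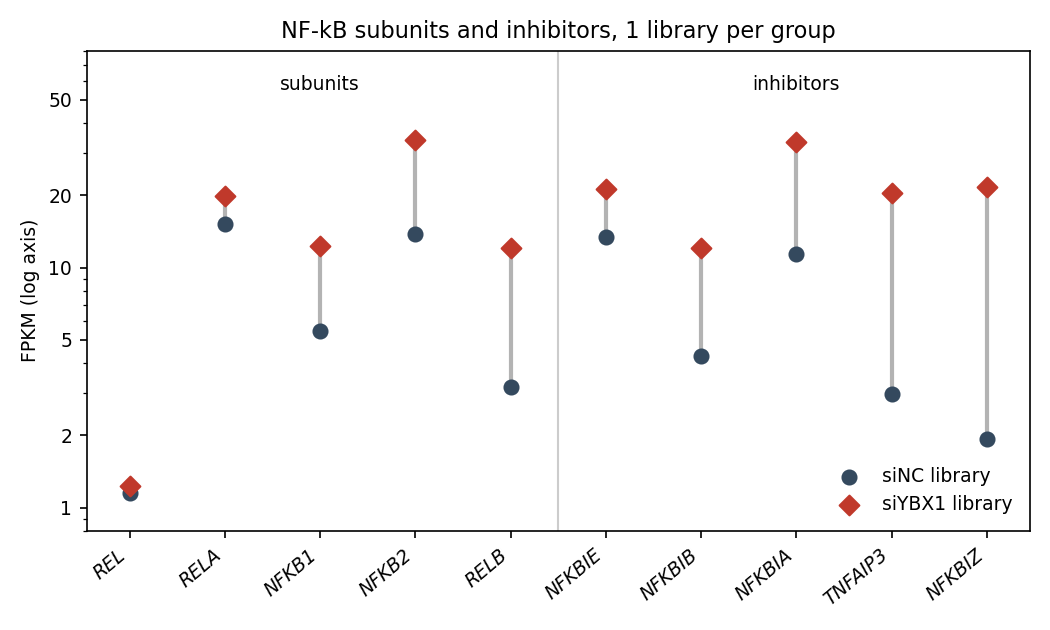
FPKM (log axis) of each NF-kB subunit and inhibitor gene in the siNC library (circles) and the siYBX1 library (diamonds), 1 library each, ordered within each role by the size of the difference. As deposited, every value was larger in the siYBX1 library, though that of REL was not at the same summed FPKM; the values run from REL at 1.23 against 1.15 FPKM to NFKBIZ at 21.6 against 1.93 FPKM.

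Among the subunits, RELA and REL differed least. RELA (ENSG00000173039.18_3), the subunit that carries most of the transactivating activity of the canonical route, stood at 19.8 FPKM in siYBX1 and at 15.2 FPKM in siNC. That is 1.31-fold and a difference of 0.37, and 28.3% of compared genes lay at least as far up. REL (ENSG00000162924.13_3), the c-Rel subunit best known from lymphocytes, was the lowest of the 10 genes in both libraries, at 1.23 and 1.15 FPKM. Its difference of 0.06 was near the median of all genes. It became -0.03 with both libraries scaled to the same summed FPKM, and 0.34 with the length trend removed. Neither RELA nor REL reached the 2-fold call.

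NFKB1 (ENSG00000109320.11_3), the precursor p105 that yields p50, stood at 12.3 FPKM in siYBX1 and 5.45 FPKM in siNC. This 2.26-fold ratio gave a difference of 1.04, and the call was lost at a pseudocount of 5 (0.73) and at the same summed FPKM (0.91). NFKB2 (ENSG00000077150.18_3), the precursor p100 that yields p52 and that also acts as an inhibitor of RELB before processing, stood at 34.0 and 13.8 FPKM. It was 2.47-fold higher, a difference of 1.24. RELB (ENSG00000104856.13_2), the partner of p52 in the non-canonical route, stood at 12.1 and 3.17 FPKM, 3.80-fold higher and a difference of 1.65. Of the compared genes, 690 lay at least as far up as NFKB1, 422 as far as NFKB2 and 154 as far as RELB. The precursor genes and RELB were therefore the subunits that passed 2-fold, and RELB had the largest ratio of the 5.

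The classical IkB genes were not alike. NFKBIA (ENSG00000100906.10_2), which encodes IkB-alpha, the inhibitor that is resynthesised fastest after NF-kB activation, stood at 33.4 FPKM in siYBX1 and 11.3 FPKM in siNC. It was 2.94-fold higher, a difference of 1.48, with 222 compared genes at least as far up. NFKBIB (ENSG00000104825.16_2), for IkB-beta, stood at 12.0 and 4.29 FPKM, 2.80-fold higher and a difference of 1.298, which became 0.87 at a pseudocount of 5. Its gene overlaps SIRT2 on the opposite strand by 163 bases in the GENCODE 29 annotation. SIRT2 stood at 4.83 and 2.50 FPKM, and since no source used here says how strand was handled, reads from the overlap cannot be assigned to either gene. Other members overlap genes that were listed in neither library. TNFAIP3 overlaps AL357060.1 by 1046 bases and RELA overlaps AP001362.2 by 9 bases, both on the opposite strand. REL overlaps AC010733.2 by 5702 bases and RNU4-51P by 140 bases, both on the same strand. Reads from these overlaps have the same limit. NFKBIE (ENSG00000146232.15_3), for IkB-epsilon, stood at 21.3 and 13.4 FPKM, 1.59-fold and within the 2-fold limits at 0.63.

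The largest differences belonged to the pair of inhibitors that are not classical IkB proteins. NFKBIZ (ENSG00000144802.11_2) encodes IkB-zeta, a nuclear protein that both restrains NF-kB and is needed for transcription of some of its secondary targets. It stood at 21.6 FPKM in siYBX1 and 1.93 FPKM in siNC, an 11.2-fold ratio and a difference of 2.95. TNFAIP3 (ENSG00000118503.14_3) encodes A20, a ubiquitin-editing enzyme that switches off signalling upstream of IKK. It stood at 20.5 and 2.98 FPKM, a 6.88-fold ratio and a difference of 2.43. Counting the gene itself, 16 of the 10548 compared genes lay at least as far up as NFKBIZ and 29 as far as TNFAIP3. Both calls were kept in all 10 alternative settings, where NFKBIZ ranged from 1.94 to 3.42 and TNFAIP3 from 1.68 to 2.74.

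**Figure D2:**
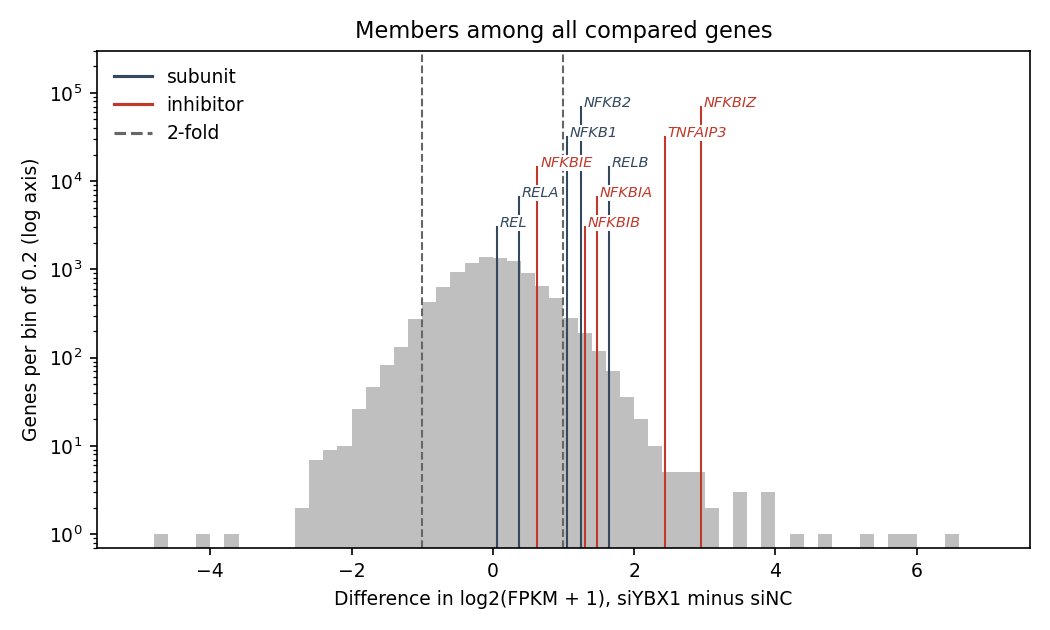
Histogram of the difference in log2(FPKM + 1), siYBX1 minus siNC, over all 10548 compared genes (count per bin of 0.2, log axis), with a vertical line for each subunit (dark) and inhibitor (red); dashed lines mark 2-fold. REL lies at the centre of the distribution at 0.06, and TNFAIP3 at 2.43 and NFKBIZ at 2.95 lie in its upper tail.

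These unequal differences changed the order of the levels. In the siNC library RELA was the highest of the 10 genes at 15.2 FPKM, followed by NFKB2 at 13.8, NFKBIE at 13.4 and NFKBIA at 11.3 FPKM, and NFKBIZ was second to last. In the siYBX1 library NFKB2 and NFKBIA were the highest at 34.0 and 33.4 FPKM, NFKBIZ was the third and RELA the sixth. With 1 library a group, neighbours in these orders have no spread to be judged against. In siYBX1, NFKB1, RELB and NFKBIB lay between 12.0 and 12.3 FPKM, and NFKBIZ, NFKBIE, TNFAIP3 and RELA between 19.8 and 21.6 FPKM.

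The summed FPKM of the 5 subunits was 79.4 in siYBX1 and 38.7 in siNC, a ratio of 2.05. That of the 5 inhibitors was 109 and 33.9, a ratio of 3.21, so that the inhibitor sum over the subunit sum was 1.37 in siYBX1 and 0.877 in siNC. With the classical IkB genes alone in place of all 5 inhibitors, this ratio was 0.839 and 0.7498. NFKBIZ and TNFAIP3 made up 38.7% of the inhibitor sum in siYBX1 and 14.5% in siNC. Among the subunits, NFKB2 and RELB together made up 58.0% of the sum in siYBX1 and 43.8% in siNC, whereas RELA went from 39.2% in siNC to 25.0% in siYBX1. RELB over RELA was 0.608 in siYBX1 and 0.209 in siNC, and NFKBIA over RELA was 1.68 and 0.748. NFKB2 over NFKB1 differed little, at 2.76 and 2.53. These are ratios of mRNA values and not of protein, and the processing of p105 and p100 is not seen in them.

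**Figure D3:**
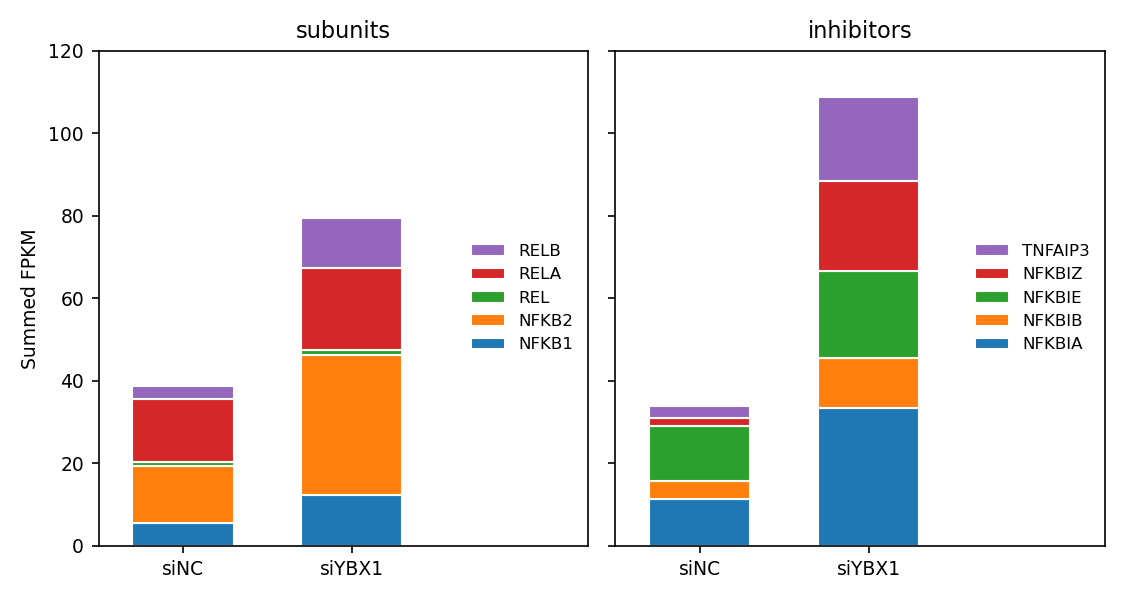
Summed FPKM of the subunits (left) and inhibitors (right) in each library, stacked by gene, 1 library per bar. The subunit bar is 38.7 FPKM high in siNC and 79.4 in siYBX1, the inhibitor bar 33.9 and 109, and NFKBIZ and TNFAIP3 together go from 14.5% to 38.7% of the inhibitor bar.

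Because NF-kB binds short DNA elements called kB sites, the stretch of 250 bases before each annotated transcript start was searched on both strands for the kB consensus, a degenerate motif of 10 letters. The sequences are those of RefSeq on GRCh38.p14, and 8 of the 10 genes, with 14 starts, had entries; RELB and NFKBIE had none. At least 1 match was found for 7 of these 8 genes and at 9 of the 14 starts. Among all RefSeq starts searched, 9.96% had a match, and of the starts of compared genes 12.0%. Among the starts of the NF-kB target genes described below 29.8% had a match, and of those of the signalling genes 19.8%. Counted by gene, 15.7% of the compared genes with an entry had a match at any start. This share was 46.7% for the target genes and 26.5% for the signalling genes. Genes with several starts have more sequence to match. A match is a run of letters and was not tested as a binding site.

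The pair of whole windows below shows where the match lies before a start of NFKBIA and of NFKBIZ, both feedback genes that were higher in siYBX1. Each is printed 5′ to 3′ on the strand of its gene, with the match in capitals. The NFKBIA window lies at chr14:35404750-35404999 on the minus strand, with its match from 81 to 72 bases before the start, and the NFKBIZ window at chr3:101827740-101827989 on the plus strand, with its match from 223 to 214 bases before the more upstream of its annotated starts.
NFKBIA: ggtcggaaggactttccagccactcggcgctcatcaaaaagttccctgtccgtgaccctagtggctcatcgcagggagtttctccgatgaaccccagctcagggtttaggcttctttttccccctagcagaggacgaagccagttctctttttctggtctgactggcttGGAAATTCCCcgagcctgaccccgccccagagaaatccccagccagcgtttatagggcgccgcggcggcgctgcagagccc
NFKBIZ: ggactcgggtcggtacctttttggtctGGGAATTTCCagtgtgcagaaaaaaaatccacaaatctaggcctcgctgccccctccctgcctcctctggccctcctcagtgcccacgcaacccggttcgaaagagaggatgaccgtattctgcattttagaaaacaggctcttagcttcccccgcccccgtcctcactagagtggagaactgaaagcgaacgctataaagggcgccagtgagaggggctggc

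The other genes with matches are shown by 30 bases around a match, to compare the letters between genes that were called higher and the 1 that was not. The TNFAIP3 stretch, at chr6:137867188-137867217, holds a pair of matches from 67 to 46 bases before the start. The stretches of NFKB1 at chr4:102501300-102501329, NFKB2 at chr10:102394461-102394490, NFKBIB at chr19:38899931-38899960 and REL at chr2:60881517-60881546 follow, all on the plus strand. In NFKB2, NFKBIB and REL a match on each strand overlaps the other by 9 letters. NFKB2 has further matches, from 78 to 69 bases before the same start and at another start, and so does NFKBIZ at its more downstream start.
TNFAIP3: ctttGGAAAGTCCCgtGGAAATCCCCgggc
NFKB1: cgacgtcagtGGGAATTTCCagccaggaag
NFKB2: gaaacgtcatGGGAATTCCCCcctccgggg
NFKBIB: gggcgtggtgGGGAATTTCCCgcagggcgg
REL: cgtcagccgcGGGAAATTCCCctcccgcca

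NFKB1, NFKBIB and the upstream NFKBIZ start share the same 10 letters, GGGAATTTCC, and NFKBIA carries their reverse complement, GGAAATTCCC. REL carries GGAAATTCCC too, from 46 to 37 bases before its start, and its level was 1.07-fold apart between the libraries. RELA had a match at neither of its annotated starts. Genes with a match in this window thus included REL, which was not called, as well as genes that were.

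In the signalling pathway around these genes, most mRNAs were called neither higher nor lower. In 8 lists of the pathway, holding 80 genes each counted once, 75 could be compared. Of these 7 were higher (9.33%) and 7 lower (9.33%), with a median difference of 0.08, shares near those of all compared genes. At a pseudocount of 5 these counts were 4 and 2. The lists were chosen with earlier results of these data known, and the named genes are those with the largest differences in each. Values are given as siYBX1 against siNC, with the difference in log2(FPKM + 1) in brackets.

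In the IKK complex and its relatives, 1 of 6 genes was higher and 0 were lower. The catalytic subunit genes CHUK and IKBKB stood at 8.29 against 7.32 FPKM and at 4.34 against 3.73 FPKM. IKBKG, the regulatory subunit NEMO, stood at 5.74 against 10.5 FPKM, a difference of -0.77, and its reads can be shared with a near-identical pseudogene copy, so its value is uncertain. IKBKE, an IKK-related kinase that is itself inducible, was the exception at 17.0 against 4.504 FPKM, 3.77-fold higher and a difference of 1.71. Its relative TBK1 and the adaptor TANK stood at 10.7 against 13.5 FPKM and at 2.72 against 5.41 FPKM.

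Of the TNF receptor complex with the linear ubiquitin ligase and TAK1, 1 of 14 genes was higher and 1 lower, with a median of 0.11. The adaptor TRAF2 was higher, at 21.2 against 7.78 FPKM (1.34), and RIPK1, the scaffold kinase of that complex, was lower, at 8.68 against 19.1 FPKM (-1.05). The receptor gene TNFRSF1A and the ubiquitin ligase gene BIRC2 were just under the call, at 20.04 against 9.86 FPKM (0.95) and 33.98 against 16.8 FPKM (0.97). The RIPK1 call ended at a pseudocount of 5 (-0.81).

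The IL-1 and Toll-like receptor branch held 17 compared genes, of which 3 were higher and 0 lower, and its median was 0.45. IRAK2, a kinase that prolongs signalling from these receptors, was 7.72-fold higher at 19.4 against 2.52 FPKM (2.54), between TNFAIP3 and NFKBIZ in its difference. TOLLIP, an adaptor that restrains the branch, stood at 10.9 against 3.25 FPKM (1.49), and the receptor gene TLR4 at 5.05 against 1.64 FPKM (1.20). Both of these calls ended at a pseudocount of 5, at 0.95 and 0.60. IL1R1, the IL-1 receptor gene, stood at 4.53 against 1.83 FPKM, a difference of 0.97.

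The non-canonical branch, to which NFKB2 and RELB belong, had 1 of 8 compared genes higher, TRAF2, and 1 lower, with a median of 0.59, the highest of the 8 lists. TRAF2 and BIRC2, described above with the TNF receptor complex, belong to this list too, at differences of 1.34 and 0.97. The lower gene was MAP3K14, which encodes the kinase NIK that starts the processing of p100, at 6.11 against 13.7 FPKM (-1.05; -0.75 at a pseudocount of 5). TNFRSF12A, a receptor of this branch, stood at 27.1 against 47.9 FPKM (-0.80). NIK is controlled largely by protein turnover, which these values do not measure.

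Among the partners of A20 and other deubiquitinases, 1 of 9 compared genes was higher and 1 lower, with a median of -0.08. The A20-binding proteins TNIP1 and TNIP2 went opposite ways, at 53.1 against 24.9 FPKM (1.06) and 18.1 against 39.2 FPKM (-1.07). Neither call was kept at a pseudocount of 5 (0.96 and -0.94), and that of TNIP1 was not kept at the same summed FPKM (0.91). CYLD, a deubiquitinase that like A20 limits signalling to IKK, stood at 7.35 against 3.23 FPKM (0.98), and TAX1BP1, an A20 adaptor, at 20.9 against 27.7 FPKM (-0.40). The other IkB-like genes differed little: BCL3, a nuclear partner of p50 and p52, stood at 2.85 against 2.38 FPKM (0.19) and NFKBID at 1.92 against 1.63 FPKM (0.15).

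Of the ubiquitin ligase that targets IkB and its regulators, 1 of 11 genes was higher and 1 lower. The RING subunit gene RBX1 stood at 17.6 against 6.05 FPKM (1.40). BTRC, the subunit that recognises phosphorylated IkB, stood at 3.55 against 8.46 FPKM (-1.06), a call that ended at a pseudocount of 5 (-0.65) and with the length trend removed (-0.95). FBXW11, the close relative that shares the role of BTRC, stood at 15.1 against 10.7 FPKM (0.46), and the scaffold gene CUL1 at 27.6 against 38.3 FPKM (-0.46).

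Nuclear cofactors and terminators of RELA held 11 compared genes, of which 0 were higher and 3 lower, and their median was -0.60. COMMD1, which promotes the removal of RELA from chromatin, stood at 3.34 against 12.5 FPKM (-1.63). The acetyltransferase gene CREBBP was lower, at 3.43 against 8.69 FPKM (-1.13), though not at a pseudocount of 5 (-0.70) or with the length trend removed (-0.86), and its relative EP300 stood at 5.48 against 10.3 FPKM (-0.80). The lower genes of this list thus include a coactivator as well as a terminator.

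Genes that NF-kB is known to transcribe, other than the members themselves, were higher in most cases. Of 31 compared genes, 19 were higher (61.3%) and 1 was lower (3.23%), with a median of 1.98. Over all compared genes these shares were 7.20% and 5.62%, with a median of 0.02. The list was put together with the results known, so its direction is no independent evidence. By the size of the difference it was led by the chemokine gene CXCL8 at 256 against 1.83 FPKM, CXCL1 at 186 against 1.95 FPKM, CSF2 at 48.8 FPKM against a listing at 0, and the cytokine gene IL1A at 30.6 against 0.268 FPKM. CXCL1 has close paralogs with which it can share reads. The inhibitors NFKBIZ and TNFAIP3, at differences of 2.95 and 2.43, lay above the median of this list, and NFKBIA at 1.48 below it. XIAP, an inhibitor of caspases, was the lower gene, at 0.868 against 2.98 FPKM (-1.09), and was chosen after its value was seen. Some targets were listed in 1 table and could not be compared. Of all genes, 11678 were listed in siYBX1, 13017 in siNC and 11476 in both. More genes were thus listed in siNC alone than in siYBX1 alone. The siYBX1 table alone held MMP9 at 2.05 FPKM, PTGS2 at 1.28 FPKM, CCL5 at 1.22 FPKM and BCL2A1 at 0.617 FPKM. The siNC table alone held CCL20 at 0.360 FPKM and TNF listed at 0, and VCAM1 and CCL2 were in neither.

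**Figure D4:**
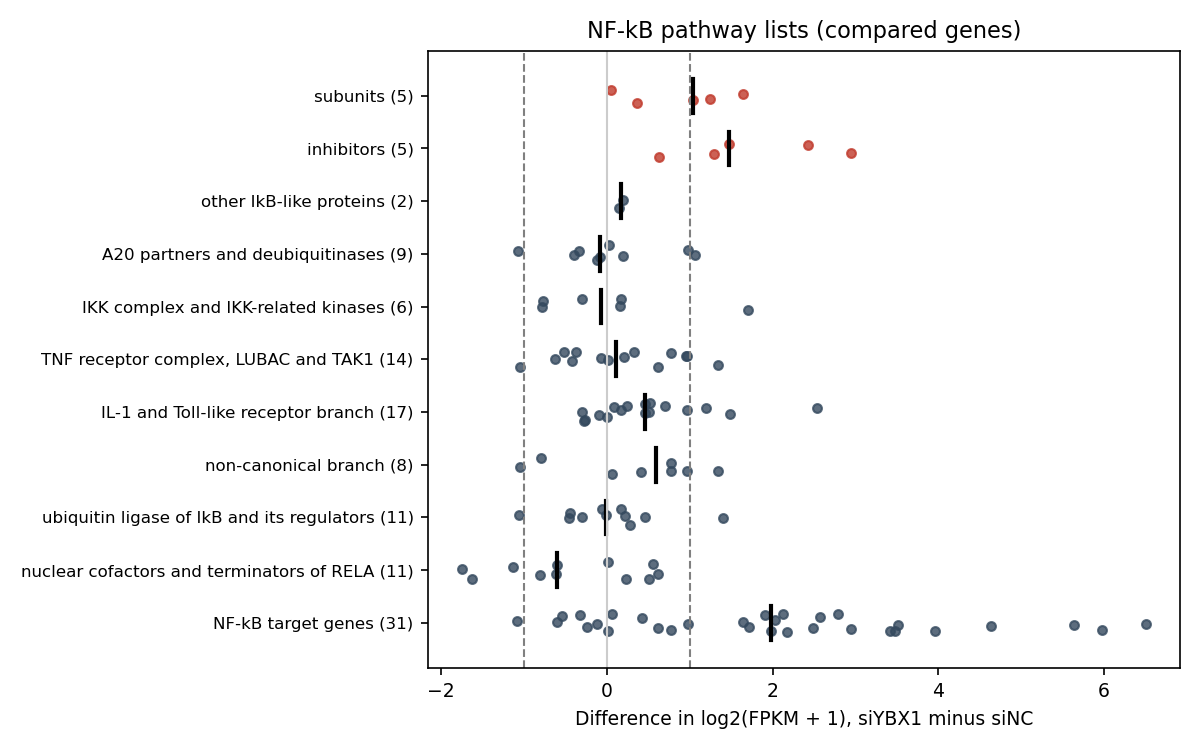
Difference in log2(FPKM + 1), siYBX1 minus siNC, of every compared gene in the subunits and inhibitors (red) and in each pathway list (dark), with the number of genes in brackets; thick bars are medians and dashed lines mark 2-fold. The medians of the subunits (1.04), the inhibitors (1.48) and the target genes (1.98) lie beyond 2-fold. Those of the 8 signalling lists lie between -0.60 (nuclear cofactors and terminators of RELA) and 0.59 (non-canonical branch).

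**Figure D5:**
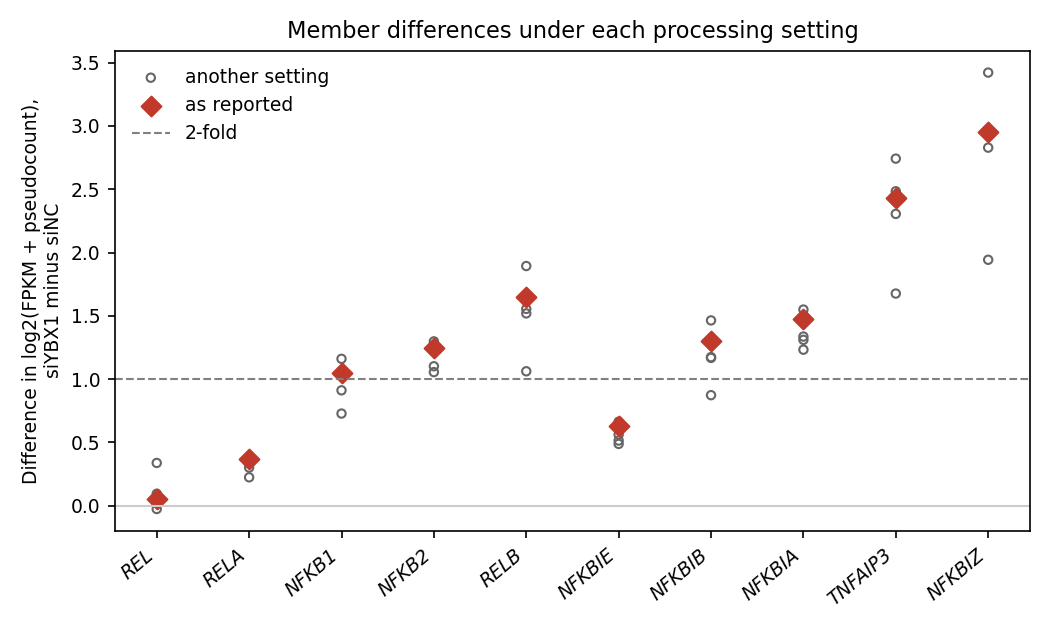
Difference of each NF-kB subunit and inhibitor gene, siYBX1 minus siNC in log2(FPKM + pseudocount), as reported (diamonds) and in each alternative setting (open circles); the dashed line marks 2-fold. NFKB2, RELB, NFKBIA, TNFAIP3 and NFKBIZ stay above the line in every setting shown, NFKB1 and NFKBIB cross it, and REL, RELA and NFKBIE stay below it.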

How the data were processed

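RNA from 1 siYBX1 library and 1 siNC library was compared. The authors deposited 1 FPKM value per gene and library, per the file headers. Tools named in the submitters' processing notes, without roles or order, are HISAT2 2.1.0, cutadapt 1.17 and StringTie 1.3.3, with GRCh37 as the build; annotation release and strand handling: not given in the sources used here. FPKM from shared or overlapping sequence can be split between genes, and with no counts no interval or floor was computed.

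Differences were log2(FPKM + 1), siYBX1 minus siNC, for genes listed in both tables with a mean of at least 1 FPKM, called from 2-fold. They were computed with Python 3.11.15, numpy 2.4.6 and pandas 2.3.3. The code was also run on simulated data with planted differences well above 2-fold. That run does not measure the error of the calls made here. With 1 library a group there was no test. Named genes were the 10 members, YBX1, all genes of lists of up to 6, otherwise the 4 with the largest difference, and genes at 0 in 1 library with at least 5 FPKM in the other. A gene that this rule admits is not reported here. The members and lists were chosen with earlier results of these data known. Transcript lengths, for 99.3% of compared genes, and gene overlaps came from GENCODE 29 on GRCh38, and promoter sequences from RefSeq on GRCh38.p14, not the authors' build. Alternatives covered pseudocount, scaling, centring, filters, missing genes, shared symbols, length and fold threshold.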

Additional observations from a re-analysis of the deposited data

How the results depend on the processing

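Over 10 alternative settings the differences of NFKB2, RELB, NFKBIA, NFKBIZ and TNFAIP3 kept their call. NFKB1 kept it in 8 and NFKBIB in 9, and REL, RELA and NFKBIE were called in none. REL was compared in 9 of the settings, as it fell below the filter of a mean of at least 5 FPKM. The number of members called higher, 7, was 5 at a pseudocount of 5, 6 at the same summed FPKM, 8 at a 1.5-fold threshold and 3 at a 3-fold threshold, which by construction admits fewer genes, and 7 in the other settings; 0 were lower in any. A pseudocount of 5 shrinks the differences of low genes by construction: over all compared genes, 314 were then higher and 209 lower, against 759 and 593, and of the signalling genes 4 were higher and 2 lower. A pseudocount of 0.1 gave 1097 higher and 925 lower genes among all 10548 compared genes. Of the 75 signalling genes, 12 were then higher and 7 lower. The 12 included TNFRSF1A (1.02), BIRC2 (1.01), CYLD (1.16) and IL1R1 (1.27), which were uncalled at a pseudocount of 1. With the length trend removed, CYLD (1.18) and IL1R1 (1.04) were also called higher, and TNFRSF12A (-1.04) was called lower. The 1 lower target gene, XIAP, was not called at a pseudocount of 5 or with the length trend removed, nor compared under the 5 FPKM filter, which left 0 lower targets. Counts of the 8 single lists were equal or within 1.5 times in 146 of 160 cases, where a count that stayed at 0 was taken as equal. Scaling to the same summed FPKM moved the median of all genes to -0.11 and that of the members to 1.13. No paired analysis was possible because each group has 1 library. Depth is unknown, so the precision of low values such as those of REL cannot be given.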
